A study of Mus musculus with 12 samples.

Results

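The transcripts described here are those of 8 genes that are abundant in plasma cells, Jchain, Sdc1, Tnfrsf17, Mzb1, Derl3, Xbp1, Eaf2 and Txndc5, measured in T cell fractions sorted from infected mouse spleen. They were chosen by name from 55401 annotated genes, and all 8 are in the deposited files. The libraries come from C57BL/6 mice infected with Leishmania donovani, a protozoan parasite that lives in macrophages of the spleen and liver, and the spleens were taken on day 21 of infection. CD4 T cells were first enriched with magnetic beads and then separated by flow cytometry into a LAG-3+ CXCR5+ PD-1lo/int fraction, called TLCP here, and a T follicular helper fraction, CXCR5+ PD-1hi, called Tfh here. Each fraction has 6 libraries, numbered 1 to 6, and the series description gives 6 mice. The sources used here give no age for the mice and no uninfected group.

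Plasma cells are the antibody-secreting end stage of the B cell lineage. They carry an enlarged endoplasmic reticulum (ER), in which immunoglobulin chains are folded, joined by disulfide bonds and assembled before secretion, and misfolded chains are returned to the cytosol for destruction. The transcription factor XBP1 drives the expansion of this secretory machinery, and together with IRF4 and BLIMP-1 (the product of Prdm1) it belongs to the regulatory core of the plasma cell. Of the 8 genes, Xbp1 and Txndc5 are also transcribed in many other cell types, T cells included, whereas Jchain, Sdc1, Tnfrsf17, Mzb1 and Derl3 serve as more restricted markers of antibody-secreting cells in lymphoid tissue.

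Because XBP1 is one of the 8, promoter windows of the members were searched for the DNA letters that XBP1-type factors bind. The windows, from RefSeq on GRCm38.p6, are 300 bases long and run from 250 bases before to 50 bases after a transcript start. A total of 7 of the 8 members matched the table, with 11 windows. Searched on both strands were TGACGTGG, the core of the unfolded protein response element, its inner letters ACGTG, which every TGACGTGG also contains, and the ER stress response element, CCAAT and CCACG with 9 bases of any kind between them. The windows of Jchain, the most abundant member, of Derl3, and the third of the Txndc5 windows are printed 5′ to 3′ on the strand of the gene, with matches in capitals. They cover chr5:88527848-88528147 on the minus strand, chr10:75893148-75893447 on the plus strand and chr13:38527865-38528164 on the minus strand.
Jchain: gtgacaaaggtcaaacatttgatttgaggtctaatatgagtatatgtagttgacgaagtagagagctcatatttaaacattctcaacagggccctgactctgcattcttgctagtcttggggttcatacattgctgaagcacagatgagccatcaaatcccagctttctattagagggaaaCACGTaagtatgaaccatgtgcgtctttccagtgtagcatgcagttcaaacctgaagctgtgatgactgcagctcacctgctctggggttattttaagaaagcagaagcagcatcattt
Derl3: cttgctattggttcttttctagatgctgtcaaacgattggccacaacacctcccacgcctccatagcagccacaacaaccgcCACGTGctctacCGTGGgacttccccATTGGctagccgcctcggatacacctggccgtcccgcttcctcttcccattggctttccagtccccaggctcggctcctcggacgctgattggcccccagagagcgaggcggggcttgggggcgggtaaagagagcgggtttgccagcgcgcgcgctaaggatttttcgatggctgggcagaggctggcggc
Txndc5: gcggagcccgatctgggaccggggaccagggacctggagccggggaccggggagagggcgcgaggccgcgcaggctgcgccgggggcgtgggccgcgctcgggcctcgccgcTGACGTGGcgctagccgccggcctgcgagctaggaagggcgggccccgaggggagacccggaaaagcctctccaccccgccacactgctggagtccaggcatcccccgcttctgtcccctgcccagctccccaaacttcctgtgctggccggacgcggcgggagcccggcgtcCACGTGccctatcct
In the Jchain window the capitals mark ACGTG read on the other strand. In the Derl3 window they mark a palindrome that holds ACGTG on both strands, followed by the 2 ends of the ER stress response element, also on the other strand. In the Txndc5 window they mark TGACGTGG and, nearer the start, the same palindrome. Over all 32851 windows of the table, TGACGTGG was found in 0.676%, ACGTG in 19.6% and the ER stress response element in 0.119%. Among the 11 member windows, ACGTG was found in 5 (those 3, the first of Txndc5 and the first of Eaf2), and no match was found in the windows of Xbp1, Sdc1 and Tnfrsf17. A match describes the letters and is not evidence that a factor binds there.

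The libraries held 6939770 to 12688306 reads in genes. Levels are given as CPM, counts per 1e6 assigned reads after TMM scaling, and a count of 0 allows up to 0.239 to 0.478 CPM in a library (3 counts of the scaled total, counting error only). Genes were tested by the edgeR quasi-likelihood test with Benjamini-Hochberg adjustment over 12015 genes, and log2 fold changes are TLCP minus Tfh. The T cell identity genes Cd3d, Cd3e, Cd3g, Cd4 and 7 others summed to 3467 to 4268 CPM in TLCP and 4865 to 5450 CPM in Tfh, so both fractions carried abundant T cell RNA.

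All 8 genes were higher in TLCP than in Tfh, and in none of them did the 6 TLCP libraries overlap the 6 Tfh libraries. For comparison, all 6 TLCP libraries lay above all 6 Tfh libraries in 8.30% of the genes tested. The differences ran from 2.03-fold for Xbp1 to 15.5-fold for Jchain among the members that could be tested. A total of 7 members had enough counts for the test and all 7 were called higher, against 16.8% of all genes tested (33.2% in either direction). All 7 were also at least 2-fold higher, against 6.57% of all genes tested. Of these 7, Jchain, Xbp1 and Txndc5 reached the filter level, 1.07 CPM before TMM scaling in at least 6 libraries, in all 12. On that unscaled level, Sdc1, Mzb1, Derl3 and Eaf2 reached it in 6 TLCP libraries and in 1 to 3 Tfh libraries. The latter 4 would not have passed the filter without the TLCP libraries, so their calls are given as values and not as support. In bulk RNA, fewer cells of a type and less RNA per cell cannot be told apart. The labels number the libraries without saying that a number stands for a mouse, so p-values measure only the spread between these libraries, which may be technical.

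**Figure D1:**
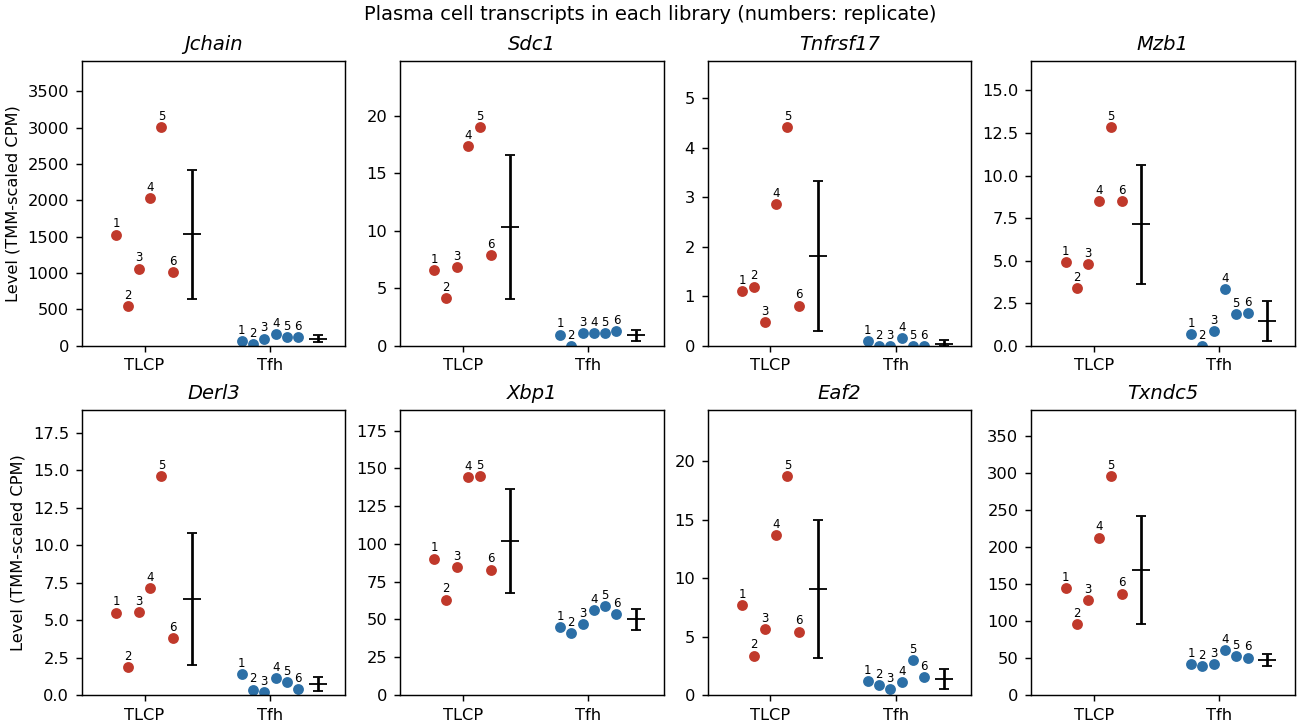
Level of each of the 8 genes in CPM (linear axis from 0, a scale of its own per panel), with 1 numbered point per library and, beside the points, the mean and SD over 6 libraries. In every panel the 6 TLCP libraries lie above the 6 Tfh libraries, and TLCP library 5 is the highest point.

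Jchain encodes the joining chain, a small polypeptide that links IgM and IgA into polymers. Its level in TLCP libraries 1 to 6 was 1529.6, 550.1, 1061, 2034, 3012 and 1010.3 CPM, and in Tfh libraries 1 to 6 it was 66.0, 28.1, 99.0, 162, 121 and 118 CPM. The lowest TLCP library was above the highest Tfh library, and within each fraction the highest library held over 5 times the level of the lowest. The means were 1533 ± 883 and 99.0 ± 46.6 CPM (SD, n = 6 each), and the difference on the log2 scale was 3.96 (SE 0.52, adjusted p = 0.000209). Compared by replicate number, the fold ran from 8.53 in number 6 to 24.97 in number 5. Jchain ranked 42 of 12015 genes by fold change. The gene lies at chr5:88519809-88527891 on GRCm38, on the minus strand.

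The surface markers were far less abundant. Sdc1 encodes syndecan-1 (CD138), the heparan sulfate proteoglycan used to sort plasma cells, at chr12:8771323-8793715. It stood at 6.61, 4.13, 6.85, 17.4, 19.0 and 7.86 CPM in the TLCP libraries and at 0.974, 0, 1.08, 1.11, 1.12 and 1.28 CPM in the Tfh libraries. TLCP libraries 4 and 5 were more than 2 times as high as the other 4, and Tfh library 2 had no read. The means of 10.3 ± 6.26 and 0.927 ± 0.464 CPM (SD, n = 6 each) differed by 3.44 on the log2 scale (SE 0.50, adjusted p = 0.000103).

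Tnfrsf17 encodes BCMA, the receptor for APRIL and BAFF through which bone marrow plasma cells receive survival signals, at chr16:11313812-11320074. It had 11, 11, 4, 28, 45 and 9 reads in the TLCP libraries and 1, 0, 0, 1, 0 and 0 reads in the Tfh libraries. Every TLCP library had reads, whereas 4 of the 6 Tfh libraries had none. It was too low to enter the test. Its summed counts of 108 and 2 corresponded to a ratio of 52.3, with a 95% counting interval of 14.1 to 437 that leaves out the spread between libraries. The authors' deposited table lists a log2 fold change of 5.56 (SE 1.03) with an adjusted p of 1.1e-06 from DESeq2 for this gene.

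The ER members came next. Mzb1, an ER protein of marginal zone B cells, B-1 cells and plasma cells that works with the chaperone GRP94, stood at 4.90, 3.37, 4.80, 8.48, 12.9 and 8.49 CPM in TLCP and at 0.708, 0, 0.886, 3.34, 1.86 and 1.91 CPM in Tfh. The lowest TLCP value was only just above the highest Tfh value, which came from library 4. Its log2 fold change was 2.34 (SE 0.54, adjusted p = 0.00417), from means of 7.15 ± 3.49 and 1.45 ± 1.18 CPM (SD, n = 6 each). The gene lies at chr18:35647267-35649367, where 57.2% of its exon bases are shared with another annotated transcript unit on the same strand, to which no read was assigned in any library. Reads from the shared bases can be left uncounted as ambiguous, so the level of Mzb1 is uncertain.

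Derl3 encodes derlin-3, a membrane protein of the pathway that removes misfolded proteins from the ER, at chr10:75893413-75895941. It stood at 5.50, 1.85, 5.53, 7.15, 14.6 and 3.79 CPM in TLCP and at 1.42, 0.359, 0.197, 1.11, 0.868 and 0.398 CPM in Tfh. TLCP library 2 was lowest and close to Tfh library 1. The log2 fold change was 3.15 (SE 0.50, adjusted p = 0.000114), from means of 6.41 ± 4.41 and 0.725 ± 0.484 CPM (SD, n = 6 each). By replicate number the fold ran from 3.89 to 28.1, the widest span among the members with reads in all 12 libraries.

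Txndc5 encodes a thioredoxin-domain protein disulfide isomerase of the ER, at chr13:38500079-38528824. Its levels were 145, 95.3, 128, 212, 296 and 137 CPM in TLCP and 42.0, 38.9, 42.0, 60.0, 52.6 and 50.4 CPM in Tfh. The Tfh libraries lay close together, and the lowest TLCP library was well above them. The means of 169 ± 73.0 and 47.7 ± 8.06 CPM (SD, n = 6 each) differed by 1.83 on the log2 scale (SE 0.27, adjusted p = 0.000388).

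The nuclear members showed the smallest and a middling difference. Xbp1, at chr11:5520659-5525893, stood at 90.2, 63.1, 84.8, 144, 145 and 82.9 CPM in TLCP and at 44.9, 40.9, 47.1, 56.2, 58.6 and 53.3 CPM in Tfh. The groups were separated by a narrow gap, between Tfh library 5 and TLCP library 2. Means of 102 ± 34.5 and 50.2 ± 6.95 CPM (SD, n = 6 each) differed by 1.02 on the log2 scale (SE 0.21, adjusted p = 0.00266), and Xbp1 ranked 867 by fold change. The counts do not separate the spliced form of the mRNA, which encodes the active factor, from the unspliced form. Eaf2, at chr16:36792884-36875003, encodes a partner of the ELL family of transcription elongation factors, to which the plasma cell factor ELL2 belongs. It stood at 7.71, 3.37, 5.65, 13.7, 18.7 and 5.42 CPM in TLCP and at 1.15, 0.837, 0.492, 1.11, 2.98 and 1.51 CPM in Tfh. The lowest TLCP library was again number 2, and the highest Tfh library was number 5. The log2 fold change was 2.76 (SE 0.47, adjusted p = 0.000326), from means of 9.10 ± 5.91 and 1.35 ± 0.867 CPM (SD, n = 6 each).

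**Figure D2:**
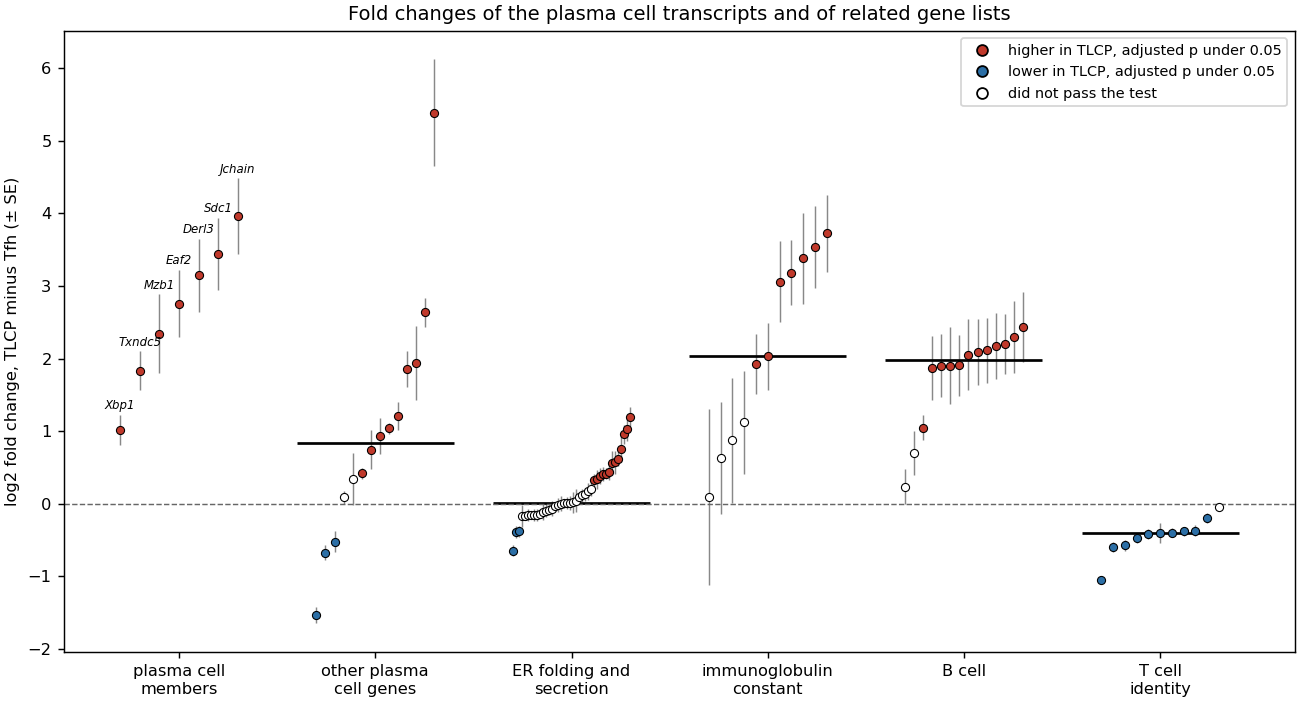
Log2 fold change, TLCP minus Tfh, with SE bars, for the 7 members tested and for genes of 5 related lists, where filled points passed an adjusted p of 0.05 and lines mark the median of each related list. The members run from 1.02 for Xbp1 to 3.96 for Jchain, while the 40 ER genes centre on 0.02 and the 11 T cell identity genes on -0.41.

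Per transcript length, in the authors' deposited TPM values, the order of the members was similar in both fractions. In TLCP, Jchain was highest at 1611 ± 943 TPM, followed by Txndc5 at 99.2 ± 44.4, Xbp1 at 82.5 ± 30.2 and Mzb1 at 15.7 ± 8.04 TPM (SD, n = 6 each). The other 4, Derl3, Sdc1, Tnfrsf17 and Eaf2, had means between 5.51 and 8.44 TPM, and no neighbours among them differed beyond the spread over libraries. Jchain was above Txndc5, and Xbp1 above Mzb1, without overlap of the libraries, whereas Txndc5 and Xbp1 overlapped although Txndc5 was the higher in 6 of 6 libraries. In Tfh, Jchain had 82.3 ± 34.0 TPM, Xbp1 32.95 ± 3.99, Txndc5 22.6 ± 3.17 and Mzb1 2.44 ± 1.82 TPM (SD, n = 6 each), and the remaining 4 had means under 1 TPM. Here Xbp1 stood above Txndc5 without overlap, the opposite of their order in TLCP.

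The members varied together among the TLCP libraries. Library 5 was the highest for all 8 members and library 2 the lowest for 7, with Tnfrsf17 lowest in library 3. Library 4 was second for 7 of the 8, with Mzb1 as the exception. The summed level of the 8 members fell in the order of libraries 5, 4, 1, 3, 6 and 2, from 3522 to 722 CPM. In Tfh the order was 4, 5, 6, 3, 1 and 2, from 285 to 109 CPM. The summed level of the 12 immunoglobulin constant genes, of which Ighm and Igkc were the most abundant, was also highest in TLCP library 5, at 32427 CPM. It was lowest in library 2, at 5559 CPM. The summed level of the 14 B cell genes had another order, with TLCP library 6 highest at 2676 CPM and library 1 lowest at 683 CPM. Leaving out TLCP libraries 4 and 5, a choice made after these values were seen, gave folds of 10.5 for Jchain, 6.70 for Sdc1, 5.72 for Derl3, 4.09 for Eaf2, 3.80 for Mzb1, 2.65 for Txndc5 and 1.59 for Xbp1. All 7 stayed past the threshold, with the highest adjusted p, 0.0266, for Mzb1, but the folds of Sdc1, Derl3 and Eaf2 were over 1.5 times smaller than with all libraries.

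**Figure D3:**
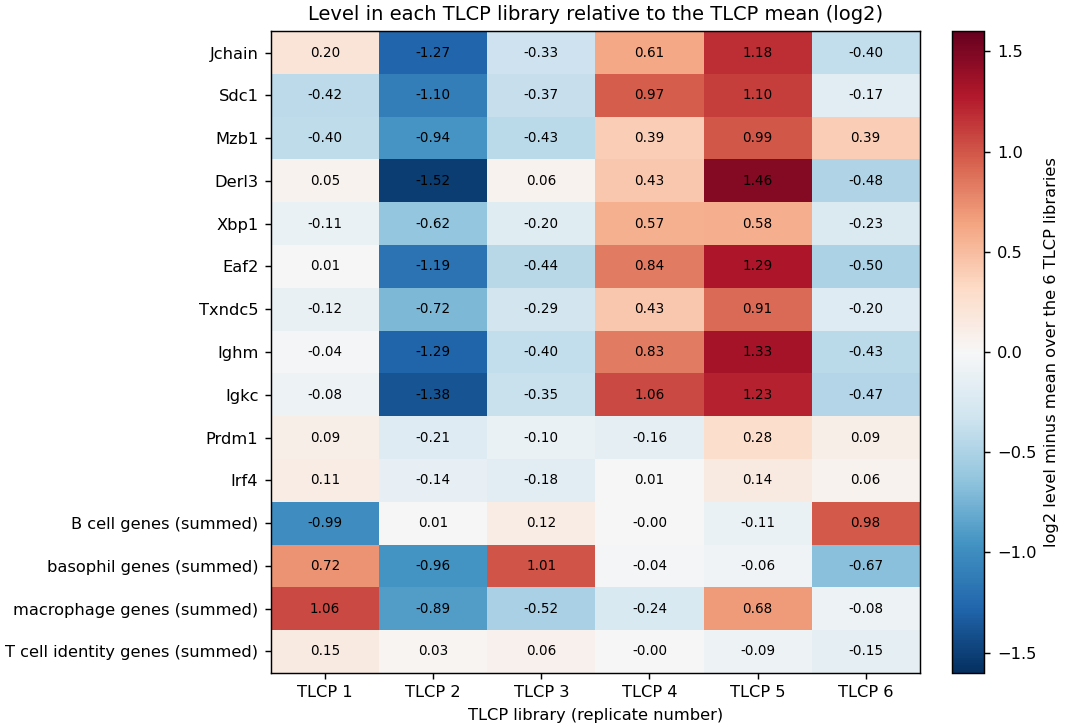
Log2 level in each TLCP library minus the mean over the 6 TLCP libraries, for the 7 members tested, immunoglobulin genes, Prdm1, Irf4 and summed lists of other cell types. Tnfrsf17 is not shown. The members shown, Ighm and Igkc rise in libraries 4 and 5 and fall in library 2, whereas the summed B cell genes are highest in library 6 and lowest in library 1.

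Set against Jchain in the same library, the members did not all keep the same ratio. Jchain had the largest fold of the members tested, so a higher average ratio of the others in Tfh restates the folds given above. Per 1000 Jchain reads, the TLCP libraries held 5.04 to 6.73 Eaf2 reads (median 5.75), 3.36 to 5.21 Derl3 reads (median 3.68), 4.32 to 8.54 Sdc1 reads (median 6.99) and 3.21 to 8.40 Mzb1 reads (median 4.40). The Tfh medians, from few reads, were higher, at 15.1, 7.05, 10.01 and 13.1. For Eaf2 and for Mzb1, 5 of the 6 Tfh libraries lay above every TLCP library and 1 lay below, which for Mzb1 was library 2 with no read. For Derl3 and for Sdc1, 4 Tfh libraries lay above, 1 within and 1 below the TLCP range. For Xbp1 and Txndc5 all 6 Tfh libraries lay above every TLCP library. Xbp1 had 48.1 to 115 reads per 1000 Jchain reads in TLCP (median 75.5) and 348 to 1455 in Tfh (median 481). Txndc5 had 94.5 to 173 in TLCP (median 113) and 371 to 1383 in Tfh (median 431). Xbp1 and Txndc5 are also transcribed in other cell types, but whether that bears on these ratios was not tested. Ighm, the constant gene of the IgM heavy chain, had 5800 to 7923 reads per 1000 Jchain reads in TLCP (median 6722) and 9656 to 28443 in Tfh (median 11688), also without overlap. Its log2 fold change, 3.18, was likewise below the 3.96 of Jchain.

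**Figure D4:**
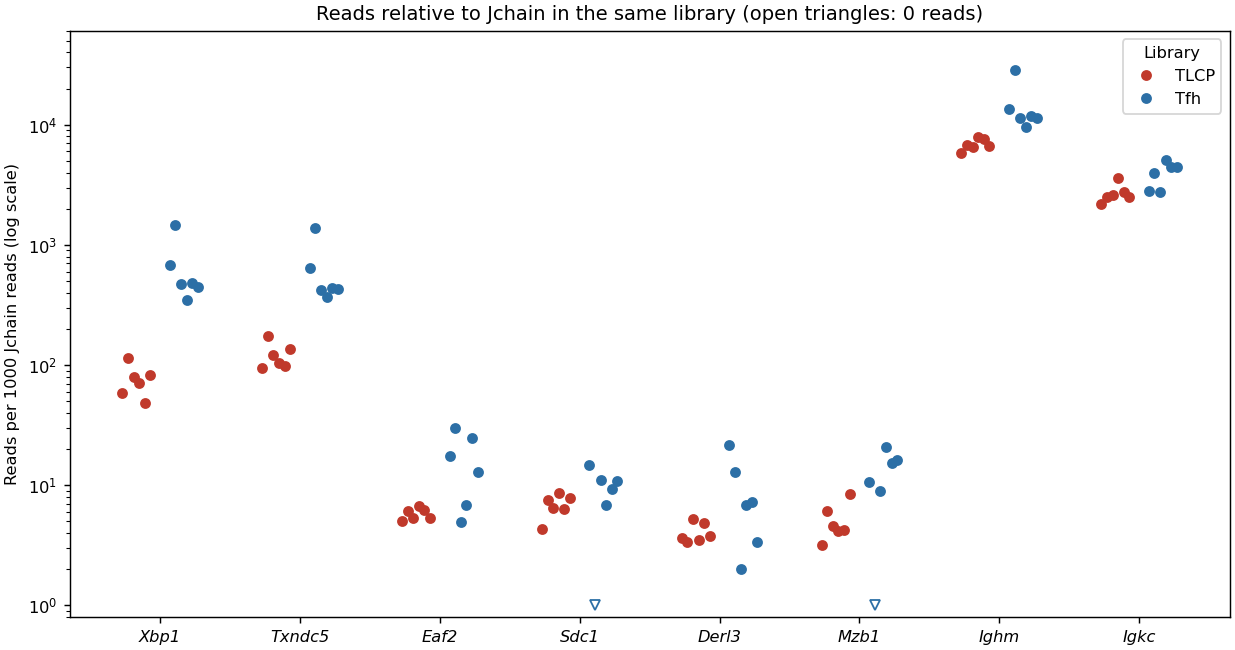
Reads per 1000 Jchain reads for 6 members, Ighm and Igkc (log axis, 1 point per library, open triangles at the foot for libraries with 0 reads). Xbp1, Txndc5 and Ighm lie at a lower ratio in every TLCP library than in any Tfh library, whereas for Eaf2, Sdc1, Derl3 and Mzb1 1 Tfh library each lies below the TLCP libraries.

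Likeness to Jchain was measured as the SD over libraries of the log2 ratio of a gene to Jchain, from log2 CPM with a prior count of 2, where a constant ratio gives 0. The points share library scaling, and the fraction contrast enters the measure over 12 libraries, so it is a description only. Over 12 libraries the SD was 0.54 for Sdc1, 0.92 for Mzb1, 0.95 for Derl3, 0.99 for Eaf2, 1.26 for Txndc5 and 1.65 for Xbp1, against a median of 2.24 over 12014 genes. Of the 20 genes most like Jchain, 15 were immunoglobulin genes and 1 was a member, Sdc1. All 12014 genes ranked included 143 immunoglobulin genes and 6 members. The 5 most alike outside immunoglobulin genes, pseudogenes and members were Ms4a2 (SD 0.64), Chst1 (0.64), Clec2l (0.68), Neb (0.72) and Reln (0.82). Ms4a2 encodes a chain of the high-affinity IgE receptor of basophils and mast cells. In Tfh, Ms4a2, Chst1 and Clec2l had few reads, with means of 0.188, 0.164 and 0.498 CPM, so the prior count weighs on their ratios. It also weighs on those of Derl3, Sdc1, Reln, Eaf2 and Mzb1, with Tfh means of 0.725, 0.927, 1.18, 1.35 and 1.45 CPM. Within the 6 TLCP libraries alone the order changed: Eaf2 had 0.16, Derl3 0.24, Txndc5 0.33, Sdc1 0.35, Xbp1 0.43 and Mzb1 0.49, against a median of 0.89. Of the 5 genes just named, Clec2l had 0.84 (rank 3272), Ms4a2 0.76 (rank 1223), Chst1 0.64, Neb 0.61 and Reln 0.39 within TLCP. There, 3 members (Eaf2, Derl3 and Txndc5) and 7 immunoglobulin genes were among the 20 most alike. Among the other 10 was Ckap4, which encodes an ER membrane protein and is named after its values were seen, with an SD of 0.24 and a log2 difference of 2.29 (SE 0.49, adjusted p = 0.00368).

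Other genes known from plasma cells did not all move with the 8. Of 16 such genes, 14 were tested, 9 were higher in TLCP and 3 lower, against 16.8% higher and 16.4% lower over all genes tested. Among those called higher, Chst1 and Ly6k reached the filter level in 0 and 1 Tfh libraries. They passed the filter through TLCP, so their calls are given as values and not as support. The median log2 fold change of the 14 was 0.84, against -0.004 over all genes tested. Irf4 had 146 to 183 CPM in TLCP (median 169.7) and 67.2 to 88.7 CPM in Tfh (median 84.2), without overlap, and its log2 fold change was 1.04 (SE 0.08, adjusted p = 5.8e-09). Prdm1, the BLIMP-1 gene and named after its values were seen, had 92.9 to 131 CPM (median 107) and 11.6 to 26.7 CPM (median 16.7), and its log2 fold change was 2.63 (SE 0.20, adjusted p = 5.0e-07). Both factors also act in T cells. Across the TLCP libraries the highest level of Irf4 was 1.25 times the lowest and that of Prdm1 1.41 times, against 5.48 times for Jchain. The lower genes were Cxcr4, the receptor for CXCL12, which fell by 1.54 on the log2 scale (SE 0.11, adjusted p = 1.0e-08), Trp53inp1, a stress response gene, which fell by 0.67 (SE 0.10, adjusted p = 7.0e-05), and Pou2af1, the B cell coactivator OCA-B, which fell by 0.52 (SE 0.15, adjusted p = 0.0153). The calls of Trp53inp1 and Pou2af1 were lost when limma was run on log2 TPM, and that of Pou2af1 also with library totals alone.

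The wider ER machinery moved less. Of 40 ER folding and secretion genes, all were tested, 13 were higher in TLCP, 3 were lower and 24 were not called. The median log2 fold change of the list was 0.02. Thus 32.5% of the list was called higher, against 16.8% of all genes tested. The 3 lower genes stand beside a share of 16.4% called lower among all genes tested. Hsp90b1, which encodes GRP94, the chaperone that works with MZB1, had 652 to 1193 CPM in TLCP (median 862) and 339 to 423 CPM in Tfh (median 386), and its log2 fold change was 1.20 (SE 0.13, adjusted p = 6.8e-06). Hspa5, which encodes BiP, the main Hsp70 chaperone of the ER, had 619 to 816 CPM in TLCP and 695 to 756 CPM in Tfh, with a log2 difference of -0.04 (SE 0.07, adjusted p = 0.693). Spcs1, a subunit of signal peptidase, fell by 0.65 on the log2 scale (SE 0.08, adjusted p = 1.8e-06).

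Genes of other cells that a CD4 T cell sort could hold were measured beside the members. Of 12 immunoglobulin constant genes, 11 were tested, 7 were higher in TLCP and none lower, by edgeR, by DESeq2 or at an unadjusted p under 0.05. By edgeR, 16.8% of all genes tested were called higher. The median log2 fold change of the 11 was 2.03. Ighm, at 3730 to 22786 CPM in TLCP and 799 to 1561 CPM in Tfh, differed by 3.18 on the log2 scale (SE 0.45, adjusted p = 0.000317), Igkc had 3.38 (SE 0.63, adjusted p = 0.00195) and Iglc2 had 3.72 (SE 0.53, adjusted p = 0.000351). The 4 that were tested and not called were the IgG genes Ighg1, Ighg2b, Ighg2c and Ighg3. All immunoglobulin genes together held 0.731% to 4.64% of the assigned counts in TLCP and 0.110% to 0.384% in Tfh. Of 14 B cell genes, 12 were higher in TLCP by edgeR, against 16.8% of all genes tested. By DESeq2 12 were higher, and at an unadjusted p under 0.05 13 were. None was lower in any of these. The median difference of the 14 was 1.98 on the log2 scale, and their summed level was 683 to 2676 CPM in TLCP and 344 to 863 CPM in Tfh. Ms4a1 (CD20) had 106 to 422 CPM in TLCP and 18.9 to 108 CPM in Tfh, with an overlap of libraries and a log2 difference of 1.90 (SE 0.43, adjusted p = 0.00656). Cd72 was 4.60-fold higher (adjusted p = 0.00186) and Ralgps2 2.07-fold higher (adjusted p = 0.000494), whereas Cd22 had a log2 difference of 0.23 (SE 0.24, adjusted p = 0.505).

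Basophil genes were also higher in TLCP, but in another order of libraries, with TLCP library 3 highest. All 4 that were tested, of 6, were called higher, against 16.8% of all genes tested. These 4 passed the filter through TLCP, reaching its level in 0 to 1 Tfh libraries, so nothing is read from their count. The summed level of the 6 was 24.2 to 94.8 CPM in TLCP and 0 to 6.69 CPM in Tfh. Of 10 plasmacytoid dendritic cell genes, 6 were tested, 4 were higher and 1 lower, and the sum was 199 to 344 CPM in TLCP and 128 to 186 CPM in Tfh, with Cd209d at 0 in all libraries and Klk1 and Cox6a2 at 0 in all Tfh libraries. Of 4 germinal center B cell genes, 3 were higher, with sums of 12.7 to 42.2 CPM in TLCP and 5.95 to 14.6 CPM in Tfh. For both lists, the shares over all genes tested were 16.8% higher and 16.4% lower. Of the genes called, Rgs13 and Gcsam (germinal center) reached the filter level in 1 Tfh library each, and Ccr9 (plasmacytoid) in 2. These genes passed the filter through TLCP, so nothing is read from the 2 counts either. No macrophage gene (3 tested of 8) and no erythroid gene (5 tested of 6) was called by edgeR. At an unadjusted p under 0.05, 1 macrophage gene and 0 erythroid genes were higher, and DESeq2, which tested 8 and 6, called 5 and 0 higher. Their summed levels overlapped, at 28.9 to 112 CPM against 17.2 to 79.0 CPM for macrophage genes and 38.6 to 115 CPM against 3.95 to 92.3 CPM for erythroid genes. Of 11 T cell identity genes, 10 were lower in TLCP and none higher by edgeR, DESeq2 or an unadjusted p under 0.05 (median log2 difference -0.41). By edgeR, 16.4% of all genes tested were called lower. Only 6 of the 11 were lower with library totals alone and 1 with limma on log2(TPM + 1). The part of these other cell types in the higher member levels was not tested.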

How the data were processed

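Polyadenylated RNA of 12 libraries was measured, 6 per fraction, grouped by the titles in the labels. The tools were bcl2fastq 2.20, STAR 2.7.1a and DESeq2 1.30.1 and the assembly was GRCm38, per the submitters' processing notes. The annotation release was not given in the sources used here. Per the labels' protocols, poly(A) RNA was selected and the kit was KAPA RNA HyperPrep.

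The authors deposited 1 file of raw read counts for each library, laid out like STAR gene counts, of which the column for the strand of the gene was taken (2.83% to 4.19% of reads in genes lay on the opposite strand). Classes that name no gene held 44.9% to 56.4% of reads and stayed out of library sizes and tests, and multimapping reads held 16.1% to 24.3%. Of the assigned counts, 12.9% to 30.9% fell on CT010467.1, a gene resembling ribosomal RNA. In the authors' deposited DESeq2 table stand log2 fold changes with their SE, p-values and, per library, a normalized signal (the count over a size factor). From that signal 100% of values could be turned back into whole reads (tolerance 0.01 reads), they equalled the stranded counts, and the same test run on them made 3983 calls. Levels of different genes were compared in the TPM values that the authors deposited.

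The test was that of edgeR 4.0.16 in R 4.3.3 (filterByExpr, TMM, robust quasi-likelihood test, 2-sided, Benjamini-Hochberg adjustment, threshold 0.05). Of 12015 genes tested, 3983 (33.2%) were called, 2014 higher (16.8%) and 1969 lower (16.4%) in TLCP, and 789 (6.57%) were called and at least 2-fold higher. The SE of a log2 fold change was obtained as its size over the square root of F. On simulated data with 200 genes changed, in 3 simulations of this comparison with 11810 to 11848 genes tested, 77.3% of genes changed 2-fold and 94.3% of those changed 4-fold were recovered, with 5.85% false calls. Intervals and floors cover counting error only. Positions are GENCODE M21 spans on GRCm38, equal to those in the files for the 8 members. Promoter windows are from RefSeq, GRCm38.p6.

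The members, the lists and the tests were chosen with earlier results of these data known. The genes named beside the members are, for plasma cell, ER, immunoglobulin and B cell lists, the 2 most abundant and the 2 with the smallest p, and the 5 most like Jchain. Genes of the other lists are given by counts and sums. The ratio of 1 gene to Jchain is not reported here. Both fractions use the numbers 1 to 6, and the deviations of same-numbered libraries from their group means correlated at 0.127 to 0.318. The numbers were used as pairs only in the replicate block and in folds by replicate number. The main test, which gave the SE and adjusted p values, was unpaired. The pairing is inferred. Libraries of different number reached up to 0.209, above the values of numbers 3 (0.137) and 4 (0.127). All libraries of a group differed by more than counting noise (chi-square per degree of freedom at least 6.66). Alternatives were RLE size factors, library totals alone, DESeq2 1.42.0, no filter, a filter of 10 CPM in 6 libraries, the replicate block, counts without regard to strand (unstranded), a test without immunoglobulin genes, limma 3.58.1 on log2(TPM + 1) and log2(TPM + 0.1), replicates 1 to 3 or 4 to 6 only, and leaving out each library. The recovered reads and leaving out TLCP libraries 4 and 5 were chosen after seeing the data.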

Additional observations from a re-analysis of the deposited data

Results flagged for a closer look

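Sdc1 had 0 CPM in Tfh library 2, against 0.974 to 1.28 CPM in the other 5 Tfh libraries, a low value set apart from the rest of its group. This library was also the lowest of the Tfh libraries for Jchain, Mzb1, Xbp1 and Txndc5. The summed plasmacytoid dendritic cell genes reached 186 CPM in Tfh library 6, against 128 to 148 CPM in the other 5. A total of 36 groups were examined for such values and these 2 stood apart, while chance sets apart about 1 in 20 groups.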

How the results depend on the processing

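Each of the 7 members tested was called higher in every alternative in which it was tested. Over all alternatives the log2 fold change ran from 3.39 to 4.22 for Jchain, 2.27 to 3.62 for Sdc1, 1.93 to 3.15 for Mzb1, 2.24 to 3.51 for Derl3, 1.83 to 3.12 for Eaf2, 1.40 to 2.02 for Txndc5 and 0.67 to 1.25 for Xbp1. Tnfrsf17, which the main test left out, had 5.56 with DESeq2, 5.21 with no filter, 2.35 with limma on log2(TPM + 1) and 4.79 on log2(TPM + 0.1), values that depend on the prior count or pseudocount. With at least 10 CPM in 6 libraries, 3 members were tested and called. Leaving out 1 library gave 7 members called each time, 1770 to 2052 genes higher and 1719 to 1974 lower, 3 to 5 ER genes lower (3 with all libraries, 5 without TLCP library 5 or 6), 0 to 1 macrophage genes higher (1 without TLCP library 3 or Tfh library 2 or 5) and 0 to 1 erythroid genes higher (1 without Tfh library 6).

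The fit with the replicate block, which follows the inferred pairing, called 7 members and 2292 genes higher, and the other counts that moved were 5 ER genes lower, 1 macrophage gene higher and 1 erythroid gene higher. The block changed no other call of a list by more than 1.5 times.

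Counts that moved under other settings were as follows. Library totals alone gave 3207 genes higher and 893 lower, 1 ER gene and 6 T cell genes lower and 1 macrophage gene higher, with the median of all genes at 0.17 on the log2 scale. Limma on log2(TPM + 1) gave 3180 genes higher and 473 lower with the median at 0.25, and on log2(TPM + 0.1) it gave 3115 and 463 with the median at 0.28. Both gave 1 plasma cell gene, 1 ER gene, 1 T cell gene and 0 plasmacytoid dendritic cell genes lower and 1 macrophage gene higher, and the former also 1 erythroid gene higher. DESeq2 gave 5 macrophage genes higher. No filter gave 5 macrophage and 7 plasmacytoid dendritic cell genes higher. Unstranded counts gave 5 ER genes lower, and leaving out immunoglobulin genes gave 1 macrophage gene higher. Replicates 1 to 3 alone gave 8 ER genes lower, and 4 immunoglobulin, 4 B cell and 2 erythroid genes higher. Replicates 4 to 6 alone gave 1 B cell gene and 2 macrophage genes higher. Hspa5 changed sign to 0.14 with totals alone, 0.24 with limma at either pseudocount and 0.093 in replicates 4 to 6, but was called lower in replicates 1 to 3, at -0.19 (adjusted p = 0.0242), and Cd22 changed sign to -0.026 in replicates 1 to 3. The cause was not tested. The strict filter tested no germinal center B cell or basophil gene. Low counts limit Tnfrsf17, Mzb1, Derl3, Sdc1 and Eaf2 in Tfh.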

Other observations

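Genes outside the 8 also kept a narrow ratio to Jchain over the 6 TLCP libraries, and those named here were chosen after their values were seen. Of the 10 such genes among the 20 most like Jchain there, 8 were called higher in TLCP, 1 was called lower and 1 was not called. Over all genes tested, 16.8% were called higher and 16.4% lower. Among those called higher, Cacna1h, Pls1, Prg2 and Cpeb3 had Tfh means of 0.470, 0.895, 0.993 and 0.588 CPM, under the filter level of 1.07 CPM. These genes would not have passed the filter without the TLCP libraries, so nothing is read from the count. Cacna1h, a T-type calcium channel gene, had the smallest SD of the log2 ratio of 12014 genes, 0.15, with 9.51 ± 5.64 CPM in TLCP and 0.470 ± 0.495 CPM in Tfh (SD, n = 6 each). Fndc3b had an SD of 0.16 and a log2 difference of 1.66 (SE 0.33, adjusted p = 0.000836). Pls1, which encodes the actin-bundling protein plastin 1, had an SD of 0.19 and a log2 difference of 2.77 (SE 0.39, adjusted p = 1.6e-05). Cd93, a surface glycoprotein known in mice from early B cells and from long-lived plasma cells, had an SD of 0.26, with 9.66 ± 6.04 CPM in TLCP and 1.58 ± 0.606 CPM in Tfh (SD, n = 6 each). Prg2, which encodes a major basic protein of eosinophil granules, had an SD of 0.30 and a log2 difference of 3.79 (SE 0.76, adjusted p = 0.00287). The gene called lower was Gstt3, a glutathione transferase gene, at -1.30 (SE 0.32, adjusted p = 0.00346), and the one not called was Apold1, at -0.24 (SE 0.51, adjusted p = 0.756). Both were low in TLCP, with means of 1.70 CPM for Gstt3 and 0.951 CPM for Apold1.

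Of the genes most like Jchain over all 12 libraries, Chst1, a sulfotransferase gene, had 5.91 ± 4.29 CPM in TLCP and 0.164 ± 0.251 CPM in Tfh, and Clec2l had 10.7 ± 2.01 and 0.498 ± 0.432 CPM. Within TLCP alone, the SD of the log2 ratio of Clec2l to Jchain was 0.84, near the median of 0.89 over the genes tested. Neb, which encodes the muscle protein nebulin, had 97.2 ± 21.4 and 10.2 ± 3.93 CPM, and Reln, which encodes reelin, had 9.18 ± 6.25 and 1.18 ± 0.81 CPM (SD, n = 6 each).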
